A study of Mus musculus with 6 samples.

Results

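The genes of the cytosolic ribosomal proteins were examined in laser-dissected mouse lens ectoderm of embryonic day 9.5. Members were chosen by gene symbol alone (Rpl or Rps with a number and at most a short suffix, Rplp0, Rplp1, Rplp2 and Rpsa), with pseudogenes and the Rps6k kinases left out. This gave 82 probes for 55 genes, out of 46632 probes and 17711 named genes on the array. Of these, 72 probes for 51 genes were tested, because they were detected (detection p below 0.05) on at least 3 of the 6 arrays. Rps6, Rps7, Rps27a, Rpl24 and Rplp1 were not analysed here.

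The series compared wild-type (WT) embryos with knockout (KO) embryos that lack type I BMP receptors in the lens placode, 3 samples of each. The titles name the line ALK23. Both genotypes were on a mixed C57BL6 and FVB background. Tissue was taken from frozen sections of 10 microns, although the tissue label also allows retina, and 15 ng of RNA per sample was amplified to cDNA. The series text counts 3 embryos per genotype and also speaks of pooled RNA. A p-value here therefore reflects only how far these 6 samples scatter, and part of that scatter may be technical. The Cre driver, the deleted exons and whether the wild types carried Cre are not given in the sources used here. All arrays sat on the same slide.

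The cytosolic ribosome is built from a small subunit, which reads the messenger RNA, and a large subunit, which joins amino acids. Rps genes encode the proteins of the small subunit and Rpl genes those of the large one. They are needed in near-equal amounts, and their messenger RNAs typically begin with a run of pyrimidines (the terminal oligopyrimidine tract) through which mTOR signalling sets their translation. Their proteins also act outside the ribosome: free Rpl5 and Rpl11 bind Mdm2 and so stabilise Trp53. Many have processed pseudogenes of near-identical sequence, so a probe can also take up signal from such copies.

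The start regions are shown because the pyrimidine tract is the sequence feature for which this family is known. RefSeq promoters (build GRCm38.p6) were found for 44 of the 55 genes, with 55 start sites. Each line below runs 5′ to 3′ from 10 bases before the annotated start to 20 after it, and capitals mark the longest run of C and T. The 12 windows are examples picked after all were read, 9 with a long run and 3 without, so they overstate how often a run was found.
Rpl28, chr7:4792955-4792984, plus strand: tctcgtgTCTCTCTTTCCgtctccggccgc
Rpl35, chr2:39005112-39005141, minus strand: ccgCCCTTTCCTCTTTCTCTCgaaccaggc
Rpl27a, chr7:109519185-109519214, plus strand: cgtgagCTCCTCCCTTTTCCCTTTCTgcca
Rpl38, chr11:114668570-114668599, plus strand: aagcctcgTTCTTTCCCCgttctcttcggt
Rpl14, chr9:120571507-120571536, plus strand: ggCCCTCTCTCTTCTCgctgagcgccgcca
Rps18, chr17:33955646-33955675, minus strand: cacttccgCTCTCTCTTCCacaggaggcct
Rps9, chr7:3704031-3704060, plus strand: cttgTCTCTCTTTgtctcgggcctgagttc
Rps15a, chr7:118116128-118116157, minus strand: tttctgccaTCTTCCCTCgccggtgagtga
Rpl22l1, chr3:28805498-28805527, plus strand: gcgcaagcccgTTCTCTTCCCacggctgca
Rps13, chr7:116334171-116334200, minus strand: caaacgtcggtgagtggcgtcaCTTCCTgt
Rpl5, chr5:107900518-107900547, plus strand: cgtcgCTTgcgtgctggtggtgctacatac
Rpl7l1, chr17:46782637-46782666, minus strand: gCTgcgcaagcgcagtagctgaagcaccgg

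A run of at least 7 pyrimidines lay in this window of 30 bases at 24 of the 55 member starts (43.6%), against 17.9% of all 32851 promoters in the table. Over the full 300 bases, read on both strands, CTCTTTC was found in 29.1% of member promoters and in 8.16% of all promoters. The ETS-factor motif CCGGAAG was in 30.9% of member promoters and 8.86% of all. The YY1 motif AAGATGGC was in 14.5% and 2.75%. Runs and CTCTTTC were counted anywhere in these stretches, also before the start, so they are not counts of terminal oligopyrimidine tracts. All these matches describe letters only, and no binding was measured. Starts differ between annotations, and Rps13, Rpl5 and Rpl7l1 show windows with no long run.

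Each array detected between 39.6% and 45.7% of all probes, with median raw intensities of 74.5 to 90.7. The precision is limited by 3 arrays per genotype. The deleted receptors gave no check of the labels. The tested Acvr1 probe (ALK2) had a log2 fold change of -0.74 (95% interval -2.12 to 0.64), and the brighter Bmpr1a probe (ALK3) had 0.12 (-0.39 to 0.63), with no known position relative to the deletions. Levels below are log2 intensities after background correction and quantile normalization. A fold change is the KO mean minus the WT mean on that scale, and adjusted p-values are from limma with Benjamini-Hochberg adjustment over all 20959 tested probes.

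Most tested ribosomal protein probes were bright on every array. The median raw intensity of the tested member probes was 1383 (WT 1), 1171 (WT 2), 1379 (WT 3), 1313 (KO 1), 1299 (KO 2) and 1845 (KO 3). Of the 82 probes, between 70 (WT 1 and WT 2) and 75 (WT 3) were detected per array. The middle of the tested members lay at a log2 level of 10.38 (quartiles 8.80 and 11.63), while the median of all tested probes was 7.30. Signals of different probes do not rank transcripts, since each probe binds with its own efficiency. The members with the highest signal were Rpl41, which encodes a peptide of the large subunit, Rpl36a, Rps21, Rps3 and Rps18, with means of 12.32 to 12.96. Those with the lowest tested signal were Rps19, Rpsa, Rpl38, Rps13 and Rps15a, with means of 5.92 to 7.30.

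The remaining 4 genes had no tested probe. Rpl3l, the striated-muscle paralog of Rpl3, and Rpl39l, the testis-enriched paralog of Rpl39, were detected on 0 of 6 arrays, with levels of 5.15 to 5.31 and 5.24 to 5.33. The Rplp2 probe was likewise detected on 0 arrays (5.26 to 5.36), although its product belongs to the ribosomal stalk. Rpl29 was detected on WT 3 only, at 7.44, while the other 5 arrays lay between 5.33 and 5.56. The second probes of Rps19 and Rpsa were detected on 0 arrays. Because a probe can fail for its own sequence, a signal at background bounds that probe and not the transcript.

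No ribosomal protein probe differed between KO and WT after adjustment. Of 72 member probes, 0 had an adjusted p below 0.05 in limma, as did 0 of all tested probes (0%), and the lowest adjusted p was 0.989. One member probe, that of Rps14, had an unadjusted p below 0.05, which is 1 of 72 where 4.49% of all tested probes did. KO arrays lay wholly apart from WT arrays for 4 member probes, 2 with KO above and 2 with KO below, where 9.82% of all tested probes showed such separation (5.38% with KO above and 4.44% with KO below). Both member counts were below the background share.

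The size of a possible difference was bounded for most members. For 42 of 51 genes, each by its brightest probe, the 95% interval stayed inside a 2-fold change both ways, where 45.7% of all tested genes had so narrow an interval. Over all member probes it was 53 of 72 (73.6%), against 40.7% of all tested probes. These shares were not compared at equal signal: the median level was 10.96 for member genes and 7.92 for all tested genes. The median log2 fold change was 0.07 over the 72 probes, with a range from -0.79 to 0.76, beside a median of 0.0075 over all tested probes. Array by array, the median level of the members was 10.27, 10.34 and 10.44 in WT 1 to WT 3 and 10.33, 10.31 and 10.57 in KO 1 to KO 3. The genotypes overlapped on this measure, and its SD was 0.08 among WT and 0.14 among KO arrays (n = 3 each). KO 3 held the highest value, and without KO 3 the median fold change was -0.0041.

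**Figure D1:**
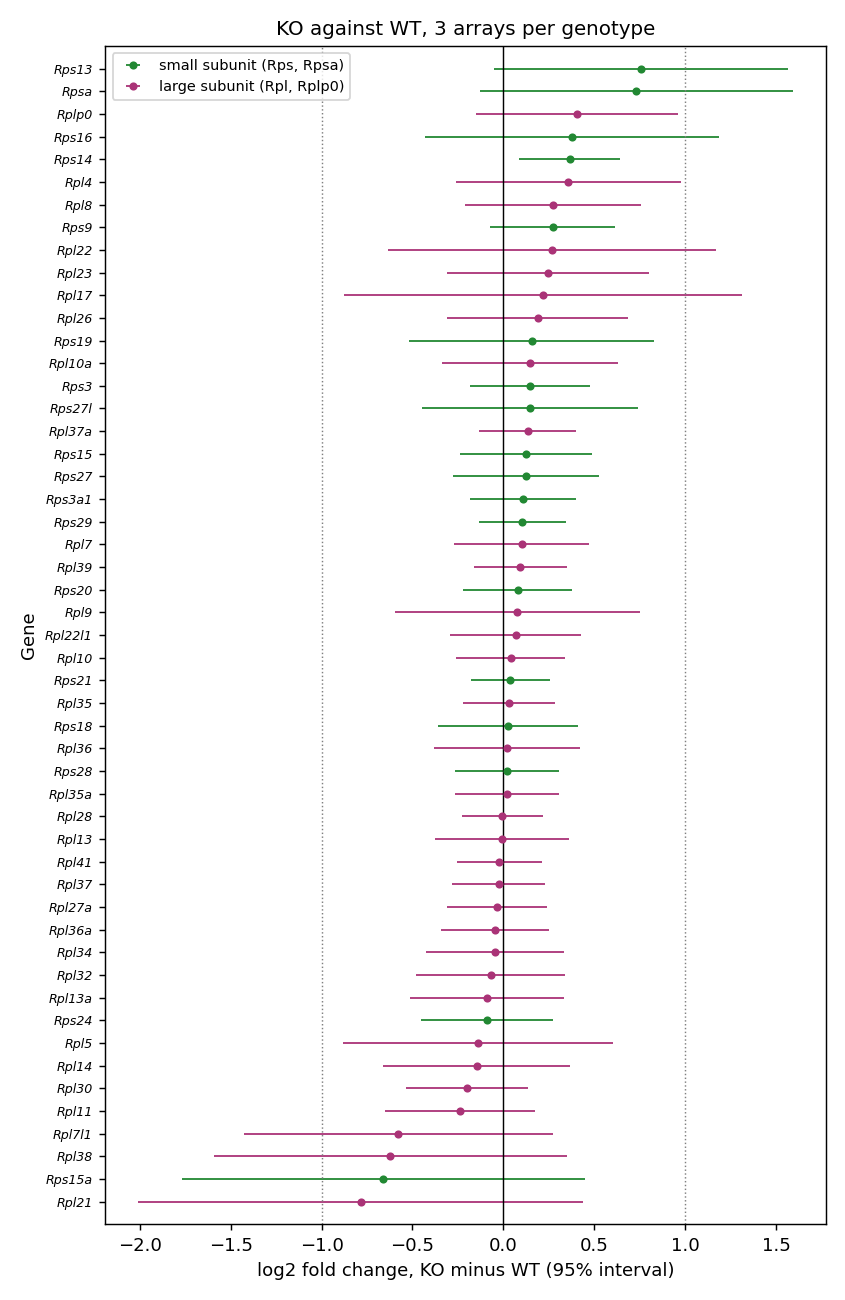
Log2 fold change (KO minus WT, horizontal axis) with its 95% interval for each of the 51 tested genes, coloured by subunit; dotted lines mark a 2-fold change. Estimates run from -0.79 (Rpl21) to 0.76 (Rps13), and only the interval of Rps14 lies wholly on 1 side of 0.

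By subunit, 16 of 18 small-subunit genes and 17 of 33 large-subunit genes had a higher mean in KO, where 49.2% of all tested genes did. The median log2 fold change was 0.12 for the small subunit and 0.02 for the large subunit. No gene of either subunit passed the test, the genes share the same 6 arrays, and the difference between subunits was not tested. The small-subunit count was 13 of 18 without WT 2 and 14 of 18 without KO 2, without KO 3 or with array weights. Across all 51 genes, 33 had a higher mean in KO, and this number was 27 without KO 3 and 38 without KO 1.

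Rps14, a core small-subunit protein whose human gene is lost in a form of myelodysplastic syndrome, was at 11.34, 11.28 and 11.56 in WT and 11.64, 11.82 and 11.81 in KO. Every KO array lay above every WT array. The log2 fold change was 0.37 (95% interval 0.09 to 0.64), with an unadjusted p of 0.0161 and a limma adjusted p of 0.989, and it stayed between 0.32 and 0.45 when each array was left out. In percent this is an estimate 28.8% above WT. The difference did not pass after adjustment over all probes.

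Rps13, another small-subunit protein, was at 5.60, 6.36 and 5.78 in WT and 6.96, 6.5 and 6.55 in KO. It was detected on 2 WT arrays and 3 KO arrays, and again all KO arrays lay above the WT arrays. Its log2 fold change of 0.76 had an interval from -0.05 to 1.57 (limma adjusted p = 0.989). Rpsa, whose product is a small-subunit protein also known as a laminin receptor precursor, was at 5.37, 5.30 and 6.06 in WT and 5.81, 7.03 and 6.08 in KO. It was detected on 1 WT array and 3 KO arrays. The groups overlapped, since WT 3 lay above KO 1. The log2 fold change of 0.73 (interval -0.13 to 1.59) was 0.37 without KO 2, the highest array. From the authors' processed values it was 1.52, after negative values were set to 0 and an offset of 16 was added. So near background, this estimate depends on these settings.

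Rps16, a small-subunit protein near the decoding site, was at 8.75, 10.01 and 10.03 in WT and 10.18, 9.60 and 10.14 in KO. WT 1 lay far below the other 5 arrays. The log2 fold change of 0.38 (interval -0.43 to 1.19) was -0.05 without WT 1. Rps9, whose yeast counterpart contributes to the accuracy of decoding, had 5 tested probes. The brightest was at 11.75, 11.63 and 12.09 in WT and 12.29, 11.94 and 12.06 in KO, a log2 fold change of 0.27 (interval -0.07 to 0.61), and the other probes gave 0.04 to 0.38. All 5 estimates were positive, and 0 of them passed.

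Rps3, which lines the entry channel for messenger RNA and also takes part in DNA repair, was at 12.12, 12.16 and 12.61 in WT and 12.42, 12.34 and 12.57 in KO, with overlap. Its log2 fold change was 0.15 (interval -0.18 to 0.48), and its second probe gave 0.65 (-0.27 to 1.57). Rps15a had the lowest estimate of the small subunit. It was at 7.32, 8.18 and 7.37 in WT and 7.37, 7.22 and 6.31 in KO, a log2 fold change of -0.66 (interval -1.77 to 0.45). WT 2 was the highest and KO 3 the lowest array, and the estimate was -0.38 without WT 2 and -0.33 without KO 3.

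Rps19 and Rps20, whose mutations darken the skin of mice, had log2 fold changes of 0.16 (interval -0.52 to 0.83) and 0.08 (-0.22 to 0.38). Rps19 was at 5.89, 5.59 and 6.06 in WT and 5.50, 6.20 and 6.30 in KO, near the lowest detected levels of 5.63 to 5.86. Rps20 was at 11.06, 10.96 and 10.91 in WT and 11.10, 10.89 and 11.17 in KO, a range of 0.28 over all 6 arrays. Both genes overlapped between genotypes.

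In the large subunit, Rplp0, the protein at the base of the stalk that recruits the translation GTPases, was at 9.45, 9.40 and 9.39 in WT and 10.06, 9.31 and 10.09 in KO. KO 1 and KO 3 lay above all WT arrays and KO 2 below them. The log2 fold change was 0.41 (interval -0.15 to 0.96) and became 0.66 without KO 2. A second Rplp0 probe had the opposite sign, at -0.39 (interval -1.03 to 0.26), with 9.16, 9.71 and 9.29 in WT and 8.50, 9.28 and 9.21 in KO. KO 1 was near the top on the first probe and the lowest array on the second, and the mean of both probes gave a log2 fold change of 0.0097.

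Rpl5 and Rpl11, the proteins that bind Mdm2, both had their lowest level on KO 1. Rpl11 was at 12.40, 12.23 and 12.15 in WT and 11.59, 12.22 and 12.26 in KO, with a log2 fold change of -0.24 (interval -0.65 to 0.17) that was -0.02 without KO 1. Rpl5 was at 9.75, 9.76 and 9.30 in WT and 8.73, 9.71 and 9.94 in KO, with -0.14 (interval -0.88 to 0.60) and 0.23 without KO 1. A second Rpl5 probe also had its lowest level on KO 1, at 8.10 against 8.62 to 9.44 elsewhere, and gave 0.13. The sign for Rpl5 therefore rested on KO 1 and on the probe.

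Other large-subunit genes with high estimates were Rpl4, which lines the exit tunnel of the nascent chain, and Rpl8, which lies near the peptidyl transferase centre. Rpl4 was at 8.75, 8.24 and 8.92 in WT and 8.87, 8.94 and 9.18 in KO, and its probes gave log2 fold changes of 0.36 (interval -0.26 to 0.98) and 0.37 (-0.25 to 0.98). WT 2 was the lowest array on both Rpl4 probes, and the first gave 0.16 without WT 2. Rpl8 was at 10.39, 10.88 and 11.06 in WT and 11.35, 10.79 and 11.01 in KO, with 0.28 (interval -0.21 to 0.76), or 0.08 without WT 1 and 0.13 without KO 1.

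Rpl21 had the lowest estimate of all members. It was at 8.46, 9.44 and 8.46 in WT and 8.35, 6.83 and 8.82 in KO, so KO 2 stood apart from the other 5 arrays. The log2 fold change of -0.79 (interval -2.01 to 0.44) was -0.20 without KO 2 and -0.45 without WT 2, and a second probe gave 0.08. Rpl38, a large-subunit protein whose loss in mice shortens the tail and lowers translation of Hox messenger RNAs, was at 5.90, 6.31 and 7.37 in WT and 5.91, 5.65 and 6.15 in KO. The log2 fold change of -0.62 (interval -1.59 to 0.35) was -0.20 without WT 3, the only array above 7 on the log2 scale. Rpl30 and Rpl14 had -0.20 (interval -0.54 to 0.14) and -0.15 (-0.66 to 0.37). Rpl13a, which in human monocytes also leaves the ribosome to repress translation, was at 10.35, 10.52 and 10.96 in WT and 10.57, 10.37 and 10.62 in KO, with -0.09 (interval -0.51 to 0.34) and 0.08 without WT 3. Rpl10a, a protein of the L1 stalk, was at 9.48, 10.0 and 10.08 in WT and 10.0, 9.82 and 10.18 in KO, with 0.15 (interval -0.34 to 0.63) and -0.04 without WT 1. Rpl27a, mutated in the mouse sooty foot ataxia line, had -0.03 (interval -0.31 to 0.24).

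**Figure D2:**
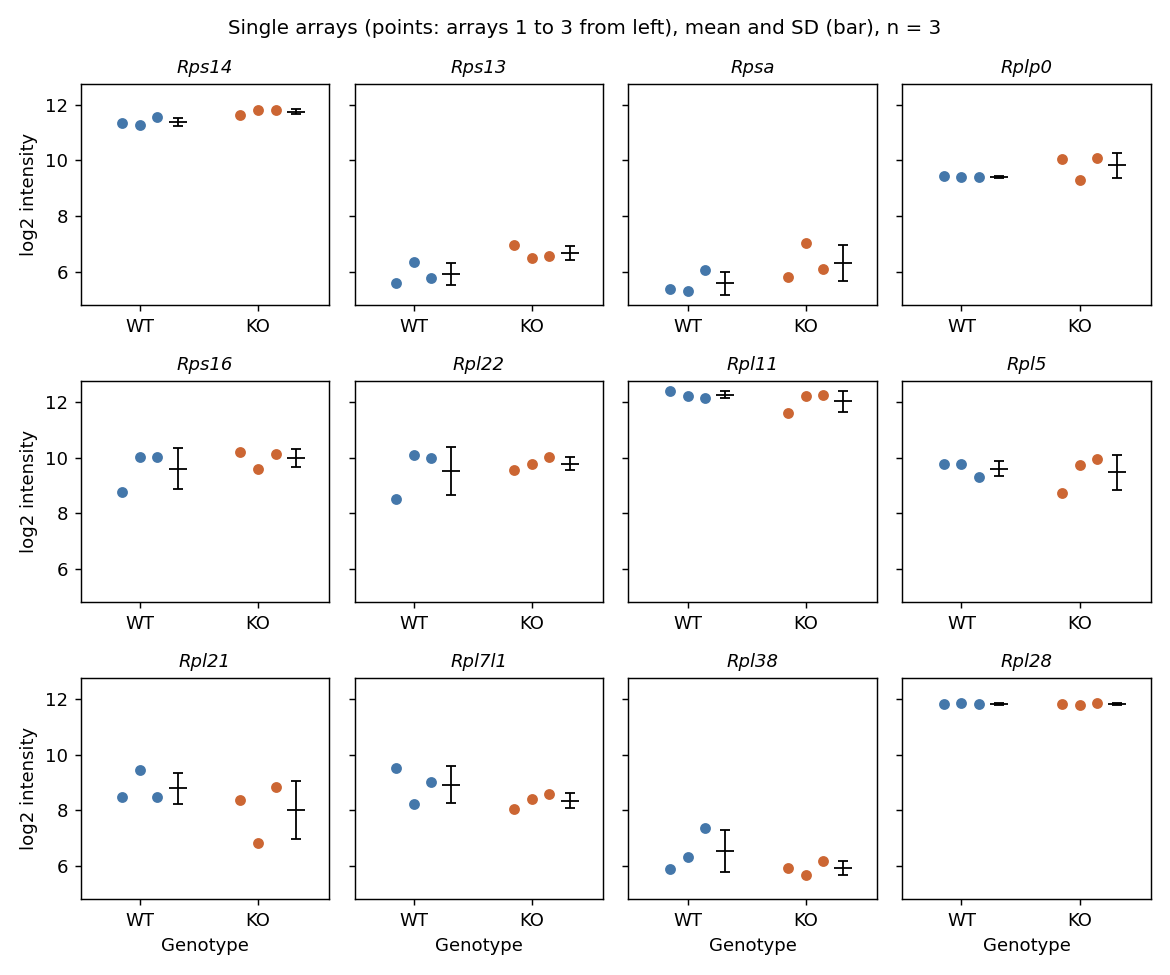
Log2 intensity (vertical axis) of 12 members on each array, WT in blue and KO in orange, with arrays 1 to 3 from left to right; the bar beside each group is the mean with its SD (n = 3). Rps14 and Rps13 show KO points above all WT points, Rpl28 shows almost no spread, and Rps16, Rpl22, Rpl5 and Rpl21 each have a single array far below the rest.

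None of the 3 tested paralogs passed the test in limma. Rpl22l1, a paralog of the large-subunit protein Rpl22, was at 10.45, 10.34 and 10.39 in WT and 10.46, 10.25 and 10.67 in KO, a log2 fold change of 0.07 (interval -0.29 to 0.43). Rpl22 itself was at 8.50, 10.08 and 9.97 in WT and 9.56, 9.76 and 10.03 in KO. WT 1 was the low array, and the log2 fold change of 0.27 (interval -0.64 to 1.17) was -0.24 without it. Rps27l, a paralog of Rps27 and a target of Trp53, was at 10.84, 10.51 and 11.08 in WT and 11.50, 10.48 and 10.89 in KO, with 0.15 (interval -0.45 to 0.74) and -0.13 without KO 1. Rpl7l1, a paralog of Rpl7, was at 9.53, 8.21 and 9.02 in WT and 8.05, 8.40 and 8.58 in KO. Its log2 fold changes were -0.58 (interval -1.43 to 0.27), -0.53 and -0.08 from 3 probes, with overlap on each.

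Rps24 was named after its values were seen, because 2 of its 3 probes did not overlap between genotypes. They were the only 2 of 72 member probes with KO wholly below WT, where 4.44% of all tested probes showed this. Because they were picked by this trait, their agreement is a description only. The brightest probe was at 10.19, 10.37 and 10.40 in WT and 10.25, 10.05 and 10.38 in KO, a log2 fold change of -0.09 (interval -0.46 to 0.27). The second was at 8.48, 8.68 and 8.83 in WT and 8.11, 8.10 and 8.0 in KO, with all KO arrays below the WT arrays and -0.59 (interval -1.22 to 0.04). The third, at 8.24, 8.27 and 7.96 in WT and 7.84, 7.89 and 7.12 in KO, did not overlap either and gave -0.54 (interval -1.39 to 0.31). All had a limma adjusted p of 0.989. Of the 14 genes with several tested probes, the estimates had the same sign for 9 and differed in sign for Rpl21, Rpl37, Rpl5, Rplp0 and Rps20.

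The spread between arrays was small for the members, and close to that of other probes at the same signal. The SD within a genotype had a median of 0.26 on the log2 scale over member probes and 0.43 over all tested probes. At a mean level of 12 and above it was 0.134 for 9 member probes and 0.133 for 204 others. From 10 to 12 it was 0.208 (30 members) and 0.203 (2222 others), and from 8 to 10 it was 0.371 (23 members) and 0.369 (5395 others). Below 8, 10 members had 0.54 and 13066 others 0.52. These medians are a description over probes that share the same arrays.

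**Figure D3:**
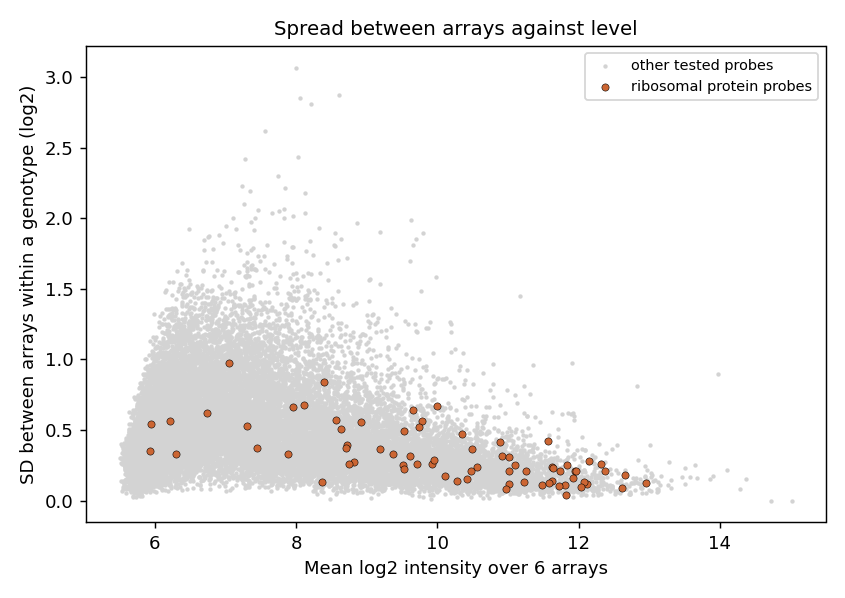
SD between arrays within a genotype (vertical axis, log2) against mean log2 intensity (horizontal axis) for 72 ribosomal protein probes (orange) and the other tested probes (grey). Member probes lie inside the grey cloud at each level, with an SD of 0.04 for Rpl28 and 0.84 for the brighter Rpl21 probe.

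Rpl28 was the steadiest member, at 11.81, 11.87 and 11.80 in WT and 11.80, 11.78 and 11.87 in KO, an SD of 0.04 and a log2 fold change of -0.0065 (interval -0.23 to 0.22). Rps28 (SD 0.08), Rps21 (0.09), Rps29 (0.10) and Rpl39 (0.10) followed. Their whole range over 6 arrays was between 0.21 and 0.33. The widest SDs among representing probes belonged to Rpl21 (0.84), Rpl17 (0.68), Rpl22 (0.64), Rps16 (0.57) and Rpl38 (0.57). Rpl17 was at 8.46, 7.14 and 8.38 in WT and 8.63, 7.51 and 8.50 in KO, with both arrays numbered 2 low. Each value is a mean over many beads, with at least 16 per member probe and a median of 37. The bead standard error had a median of 0.05 on the log2 scale, and the SD between arrays exceeded it for 71 of 72 member probes. The median ratio was 4.81 for members and 6.87 over all tested probes. The bead error was taken from raw intensities and the SD from background-corrected levels, so the ratio is only a rough guide.

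No array was the highest, or the lowest, for most members. KO 3 was the highest array for 25 of 72 member probes (34.7%, against 12.9% of all tested probes), and WT 3 was the lowest for 0 (against 13.8%). WT 1 was the lowest array for 21 (29.2%, against 22.2%) and KO 1 for 18 (25.0%, against 14.7%). At the same time KO 1 was the highest array for 14. Rpl9, a large-subunit protein named after its values were seen, was at 10.50, 10.35 and 10.06 in WT and 9.67, 10.84 and 10.63 in KO, with KO 1 lowest, as it was for Rpl5, Rpl11 and Rpl36a. Rps13, Rps16 and Rpl8 had KO 1 as their highest array.

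**Figure D4:**
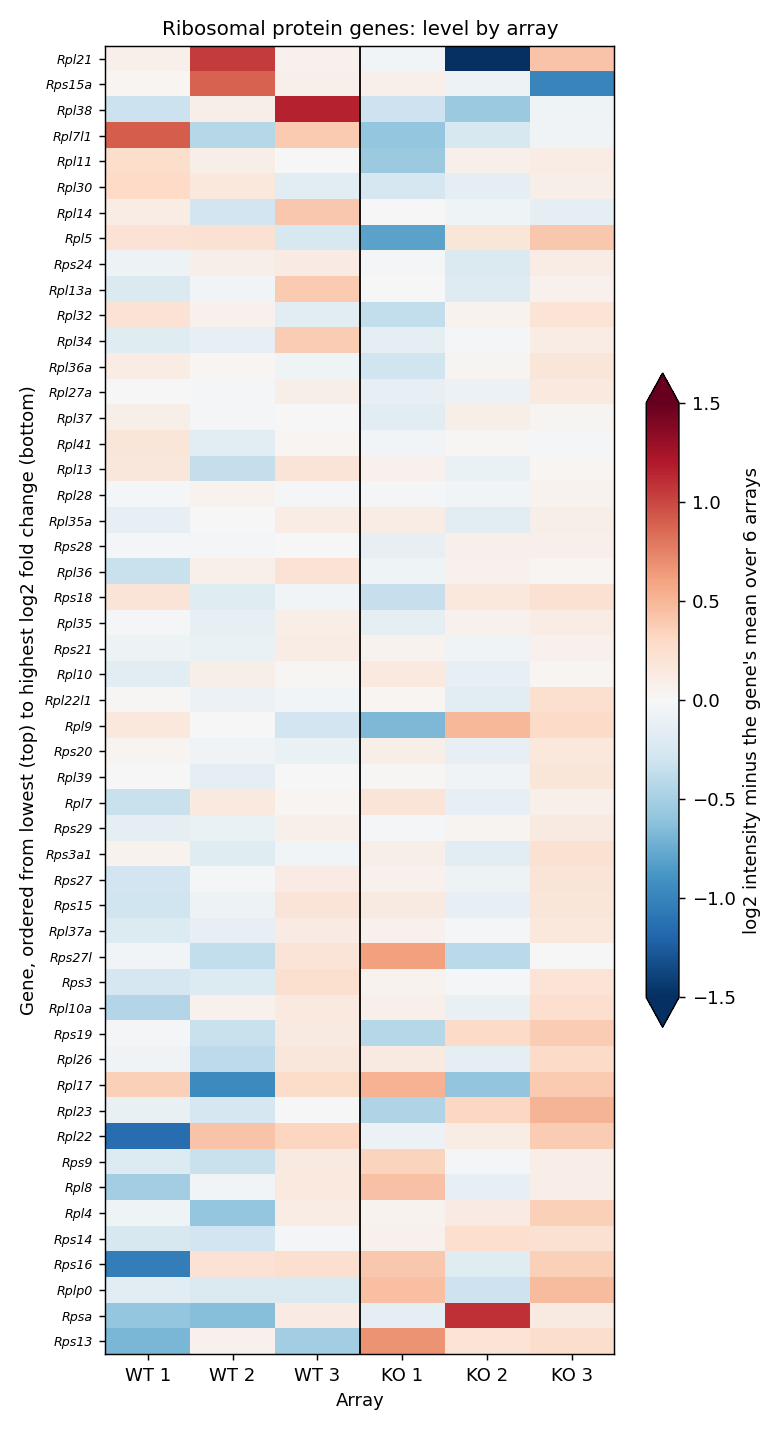
Log2 intensity of each of the 51 tested genes minus its mean over 6 arrays (colour), by array (columns) and ordered by log2 fold change (rows); the line separates WT from KO. Single arrays stand out for single genes, such as KO 2 for Rpl21, WT 3 for Rpl38 and WT 1 for Rpl22 and Rps16.

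Other genes of ribosome production and translation also gave no call, with 0 passing in each list. Of 37 tested ribosome biogenesis factors, 19 had a higher and 18 a lower mean in KO, with a median log2 fold change of 0.03. The largest were -0.68 for Nle1 (interval -1.76 to 0.41), an assembly factor of the large subunit, and 0.65 for Sbds (-0.35 to 1.65), which helps to release a factor from new large subunits. Of 11 genes of RNA polymerase I and its factors, which make ribosomal RNA, 7 were higher and the median was 0.12. Polr1e had 0.62 (interval -0.49 to 1.73) and Polr1b -0.58 (-1.32 to 0.17). Groups did not overlap for 1 of 37 biogenesis factors and 0 of 11 polymerase genes, where 9.61% of all tested genes did not.

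Translation factors, many of which also carry the pyrimidine tract, had 14 of 22 genes higher in KO and a median log2 fold change of 0.05. Eif2s3x, a subunit of the factor that brings the initiator tRNA, had 0.83 (interval -0.12 to 1.77). Btf3, part of the complex at the ribosomal exit site, was at 9.07, 9.21 and 9.10 in WT and 9.69, 9.25 and 9.72 in KO, and did not overlap (0.42, interval -0.07 to 0.91). On both genes KO 1 and KO 3 were high and KO 2 lay close to WT, the order seen on the brighter Rplp0 probe. Mitochondrial ribosomal proteins, which serve a separate ribosome, had 40 of 71 genes higher and a median of 0.03. The widest were Mrpl35 at -1.06 (interval -2.25 to 0.13) and Mrps11 at 0.83 (-0.54 to 2.20).

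**Figure D5:**
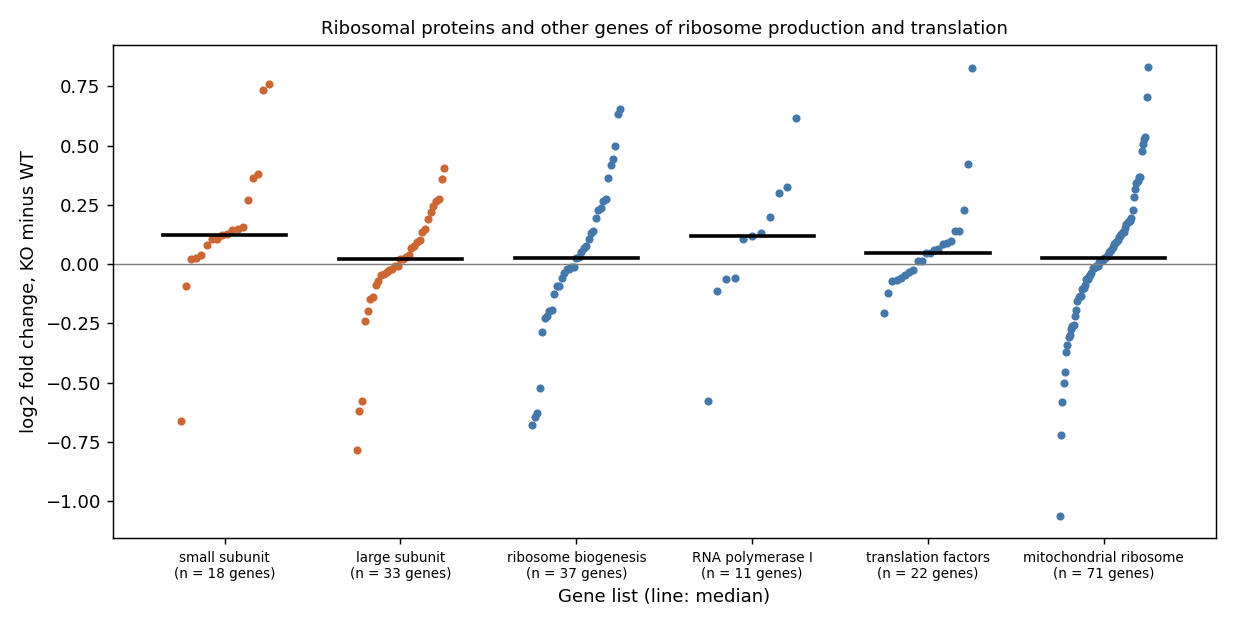
Log2 fold change (KO minus WT, vertical axis) of every tested gene of the small and large cytosolic subunits (orange) and of 4 other lists (blue), with the median as a black line. Medians lie between 0.02 and 0.12, and each list spans 0.

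Fau, whose product is a small-subunit protein fused to a ubiquitin-like domain, and Rpl36al, a paralog of Rpl36a, fell outside the symbol rule. They had log2 fold changes of 0.22 (interval -0.31 to 0.74) and -0.02 (-0.54 to 0.50). A further list held 5 tested genes: Rptor, Mtor, Myc, Mycn and Mdm2, the last as the partner of free Rpl5 and Rpl11. All 5 had a lower mean in KO, as did 5131 of all 10099 tested genes, and 0 passed. Myc was near background, with a mean of 5.76 and detection on 4 of 6 arrays. The largest were Rptor, the mTOR complex subunit, at -0.34 (interval -1.12 to 0.43) while its other probes ranged from -1.09 to 0.74, and Mdm2, at -0.18 (-0.40 to 0.04) with 0.25 from its second probe. Mdm2 was at 12.18, 12.05 and 12.18 in WT and 11.97, 11.99 and 11.90 in KO on the brighter probe, with no overlap.

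Marker lists of the tissues around the lens varied widely between arrays of a genotype, with median SDs of 0.69 to 1.04 over the 5 lists below. The mean level of 11 tested lens and surface ectoderm markers was 9.34, 10.51 and 9.60 in WT and 9.25, 10.37 and 10.31 in KO. That of 7 mesenchyme and neural crest markers was 8.64, 7.35 and 8.60 in WT and 8.38, 7.42 and 7.59 in KO. The 9 optic vesicle markers ran from 5.99 (WT 2) to 8.34 (WT 3), the 6 endothelial markers from 6.29 (WT 2) to 8.11 (KO 1) and the 6 blood markers from 8.28 (KO 3) to 9.97 (WT 1). All 11 tested lens markers were detected on every array, as were 5 or 6 of 6 blood markers, 6 or 7 of 7 mesenchyme markers, 4 to 9 of 9 optic vesicle markers and 3 to 6 of 6 endothelial markers. Only markers detected on at least 3 of 6 arrays were tested, so high detection was built in. The full lists held 12 lens, 11 blood, 10 mesenchyme, 12 optic vesicle and 8 endothelial genes. In whole dissected pieces, fewer cells of a type and less RNA per cell cannot be told apart. The part of tissue makeup in the ribosomal protein values was not tested.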

How the data were processed

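Lens ectoderm RNA of 3 WT and 3 KO samples was hybridised to an Illumina BeadChip. Per the file headers, the deposited non-normalized table holds the mean intensity over beads, their standard error and number, and a detection p-value, per probe and array. The submitters' processing notes name GenomeStudio. The deposited series matrix holds processed intensity values, read as linear from their range, with medians of 18.53 (WT 1), 18.54 (WT 2), 18.54 (WT 3), 18.53 (KO 1), 18.51 (KO 2) and 18.54 (KO 3). Its columns rank probes as the raw intensity does. The sources used here do not say how they were corrected and normalized, nor the build. The raw intensity went through neqc (limma 3.58.1, R 4.3.3): normexp background correction from the detection p-values, an offset of 16, quantile normalization and log2. Symbols came from the platform annotation: 29976 probes had 1 symbol, 10 several and 16646 none. The membership rule used these symbols. For gene counts and lists they were replaced by the RefSeq symbol where the gene identifier matched. KO minus WT was fitted on all tested probes with lmFit and eBayes (variance trend), two-sided, threshold 0.05. The fit was also run on simulated data with independent values per probe and array. Shifts shared by many probes of an array were not simulated, so that run does not cover them. A gene stands by its brightest tested probe. Named with values were fixed role groups, the 8 largest estimates each way, the 6 lowest p and the 5 extremes of level and SD, and 2 genes per pathway list. Members and lists were chosen with earlier results of these data known. Alternatives were other background corrections, normalizations, offsets and filters, a replicate block, array weights, no variance trend, the mean of a gene's probes and each array left out. The authors' processed values were a further alternative, with negative values set to 0 and the offset of 16 added before log2.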

Additional observations from a re-analysis of the deposited data

How the results depend on the processing

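In limma, 0 probes had an adjusted p below 0.05 under each of the 16 alternatives fitted on probes. Between 576 (without KO 3) and 1961 (no filter on dim probes) had an unadjusted p below 0.05. For the mean of a gene's probes, calls were read for the named genes only, and 0 of 34 named ribosomal protein genes passed. Of 34 named ribosomal protein genes, 18 kept the sign of their estimate in every alternative that tested them. The replicate block and the fit without a variance trend leave every estimate unchanged by design, so neither could turn a sign. Rps13, Rpsa, Rpl38 and Rps19 were not tested when detection on all 6 arrays was required. The median SD of the members was 0.32 with median scaling in place of quantile normalization. Their median log2 fold change was 0.031 in that setting, and 29 of 51 genes had a higher mean in KO. When single arrays were left out, this median ran from -0.0041 (without KO 3) to 0.11 (without WT 3). It was 0.018 without WT 1. Signs turned for Rps28 with median scaling (-0.05), for Rpl28 (0.018), Rpl36a (0.044), Rpl41 (0.020) and Rps28 (-0.019) with cyclic loess, and for Rpl28 (0.013), Rpl36a (0.046), Rpl5 (0.12), Rps21 (-0.0023), Rps27l (-0.019) and Rpl36al (0.090) with array weights. Mdm2 turned to 0.037 as the mean of its probes. The cause was not tested.
With each array left out in turn, the estimates that changed sign spanned the following ranges: Bmpr1a from -0.082 to 0.26, Fau from -0.044 to 0.39, Rpl10a from -0.036 to 0.26, Rpl13a from -0.22 to 0.084, Rpl14 from -0.33 to 0.020, Rpl17 from -0.20 to 0.57, Rpl22 from -0.24 to 0.55, Rpl22l1 from -0.034 to 0.17, Rpl27a from -0.12 to 0.014, Rpl28 from -0.033 to 0.017, Rpl36a from -0.15 to 0.094, Rpl36al from -0.19 to 0.23, Rpl41 from -0.11 to 0.057, Rpl5 from -0.38 to 0.23, Rps16 from -0.046 to 0.59, Rps18 from -0.085 to 0.21, Rps21 from -0.00024 to 0.11, Rps27l from -0.13 to 0.39 and Rps28 from -0.015 to 0.087. The labels number the samples 1 to 3 in both genotypes. Deviations from the group means of same-numbered arrays correlated at 0.11, 0.14 and -0.0076. Those of differently numbered arrays correlated at -0.19 to 0.13. With 3 arrays per genotype, these values cannot decide whether the numbers pair the samples. With the replicate block 0 probes passed. The numbers are balanced over the genotypes, so the block could not change any fold change. The members' median of 0.07 was therefore the same as without it by design.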
